A study of Mus musculus with 8 samples.

Results

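The bone morphogenetic protein (BMP) SMADs and the Id genes were followed in mammary epithelium of pregnant mice by taking every row of the deposited gene table that carried 1 of 10 gene names. These were Smad1, Smad4, Smad5, Smad6, Smad7, Smad9, Id1, Id2, Id3 and Id4. All 10 were found among the 55933 genes of the table, and 9 of the 15143 genes that passed a filter of a mean of at least 0.5 FPKM were members; Smad9 was below it. FPKM is a fragment count scaled to gene length and to sequencing depth, so that levels of genes of different length can be set side by side.

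RNA was sequenced from the mammary epithelium of 8 female C57BL/6 mice at pregnancy day 14.5, of which 4 carried the label WT (called control here) and 4 the label cKO. The cKO mice were K14-rtTA;teto-Cre;Bmpr1a fl/fl, in which doxycycline in the drinking water, given until collection, switches on Cre recombinase under the keratin 14 promoter and deletes Bmpr1a in myoepithelial cells. Controls were littermates, whose alleles and doxycycline treatment are not detailed in the sources used here, and the RNA came from the digested epithelial preparation and not from a sorted myoepithelial fraction. Each library held 16123108 to 19896988 reads on genes, recovered from the FPKM values. Bmpr1a itself, the BMP type I receptor that was targeted, measured 10.6, 11.7, 8.74 and 9.52 FPKM in the 4 control libraries and 12.01, 12.03, 10.2 and 10.4 FPKM in the 4 cKO libraries. Its whole-gene level was therefore not lower in the libraries labelled cKO (log2 fold change 0.13, SE 0.10, limma adjusted p = 0.560), and the group names below follow the labels alone. By western blotting, the paper reports loss of BMPR1a protein and less phosphorylated SMAD1 and SMAD5 in epithelial cells of cKO mice at this day. It also reports BMPR1a in luminal as well as myoepithelial cells, and the RNA here was not sorted.

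BMP ligands bind pairs of type I and type II receptors, and the activated type I receptor phosphorylates the receptor-regulated SMADs (R-SMADs) SMAD1, SMAD5 and SMAD9. These join the common partner SMAD4, enter the nucleus and bind DNA, while the inhibitory SMADs SMAD6 and SMAD7 act back on receptors and R-SMADs, and are themselves transcriptional targets of the pathway. The Id genes are classical early BMP targets; they encode helix-loop-helix proteins without a DNA-binding region that capture E proteins and so hold back differentiation in many tissues. Because SMAD activity is set by phosphorylation, mRNA levels of the SMADs do not measure the activity of the pathway. The amounts of the SMAD proteins were not measured in these libraries.

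Promoter sequences were examined because SMAD1, SMAD5 and SMAD4 are known to bind short GC-rich and GTCT boxes. RefSeq windows (GRCm38.p6) of 300 bases, with 250 before and 50 after the start, were held for 7 of the 10 members in 9 windows. Entries for Id1, Smad4 and Smad7 were not used here. Among the 7 members with windows, Smad6 alone held a full palindromic GTCT box. It and Id4, the tested member with the greatest difference between groups, are shown as the 250 bases before the start. In each, the box GGCGCC, its variant form GGAGCC and the palindrome GTCTAGAC are in capitals wherever they occur on either strand, and the last 4 letters of Smad6 are the left side of a GTCTAGAC box that runs over the start. In the Smad6 stretch around the start, the leading capitals GCC are the end of the GGAGCC box at -18.
Id4, chr13:48260866-48261115, plus strand: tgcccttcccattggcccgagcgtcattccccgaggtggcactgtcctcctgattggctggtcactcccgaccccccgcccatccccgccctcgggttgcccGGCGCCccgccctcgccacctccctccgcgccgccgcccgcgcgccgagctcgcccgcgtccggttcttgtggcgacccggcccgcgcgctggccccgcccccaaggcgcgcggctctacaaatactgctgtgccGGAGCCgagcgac
Smad6, chr9:64022060-64022309, minus strand: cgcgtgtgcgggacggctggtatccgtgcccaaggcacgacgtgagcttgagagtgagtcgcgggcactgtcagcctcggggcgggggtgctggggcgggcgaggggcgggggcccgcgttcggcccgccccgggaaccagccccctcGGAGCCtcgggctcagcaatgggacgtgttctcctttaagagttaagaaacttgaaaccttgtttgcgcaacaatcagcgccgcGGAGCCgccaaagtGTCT
Smad6 around the start, chr9:64022045-64022074, minus strand: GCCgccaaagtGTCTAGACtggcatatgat

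The Id4 window held GGCGCC at -148 and GGAGCC at -13 relative to the start. That of Smad6 held GGAGCC at -102 and -18 and GTCTAGAC at -4. Over both strands, GGCGCC was present in 5 of the 9 member windows and in 11.9% of 32841 windows of the same length, GGAGCC in 6 of 9 and 30.9%, and GTCTAGAC in 1 of 9 and 0.213%. Smad5 gave 3 of the 9 windows, of which 2 overlap and hold the same GGCGCC site, so that by gene GGCGCC was found for 4 of 7 members and GGAGCC for 6 of 7. These matches are descriptions of letters: the GC content of the 250 bases before the start was 60.0 to 75.6% in the members, and the median over the same 250 bases of all windows was 52.4%.

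The files place the genes on GRCm38. Id4 spans chr13:48261228-48266026 and Smad5 chr13:56703010-56742377 on the plus strand, Id1 lies at chr2:152736251-152737410 and Id3 at chr4:136143497-136145755 on the plus strand, and Id2 at chr12:25093799-25097140 on the minus strand. Smad1 spans chr8:79338395-79399518 and Smad6 chr9:63953076-64022059 on the minus strand, and Smad9 chr3:54755582-54801257 on the plus strand, while Smad4 and Smad7 are both on chromosome 18. The table gives 1 value per gene and library, so that isoforms are not told apart.

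The levels of the members spanned a wide range. In control libraries Smad4 was the highest (31.6 ± 2.68 FPKM, SD, n = 4), followed by Id3 (18.6 ± 1.56), Smad1 (14.2 ± 0.739) and Smad5 (12.03 ± 0.926), and in this upper part of the order no neighbouring ranges overlapped. Id4 (9.45 ± 0.955), Id2 (8.47 ± 1.40), Id1 (6.54 ± 1.15) and Smad7 (6.01 ± 0.872) came next, each with a range that overlapped that of its neighbour. Smad6 (1.41 ± 0.133 FPKM) was clear of Smad7, and Smad9 stood at the limit of detection. Among the 15143 genes tested, 89.2% had a lower mean than Smad4 and 20.0% a lower mean than Smad6. In cKO libraries the order was the same except that Id4 came below Id2. For comparison, the R-SMADs of the TGF-beta branch measured 56.7 ± 3.90 (Smad3) and 8.18 ± 0.498 FPKM (Smad2) in control libraries, so that Smad3 mRNA was 3.99 times that of Smad1.

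**Figure D1:**
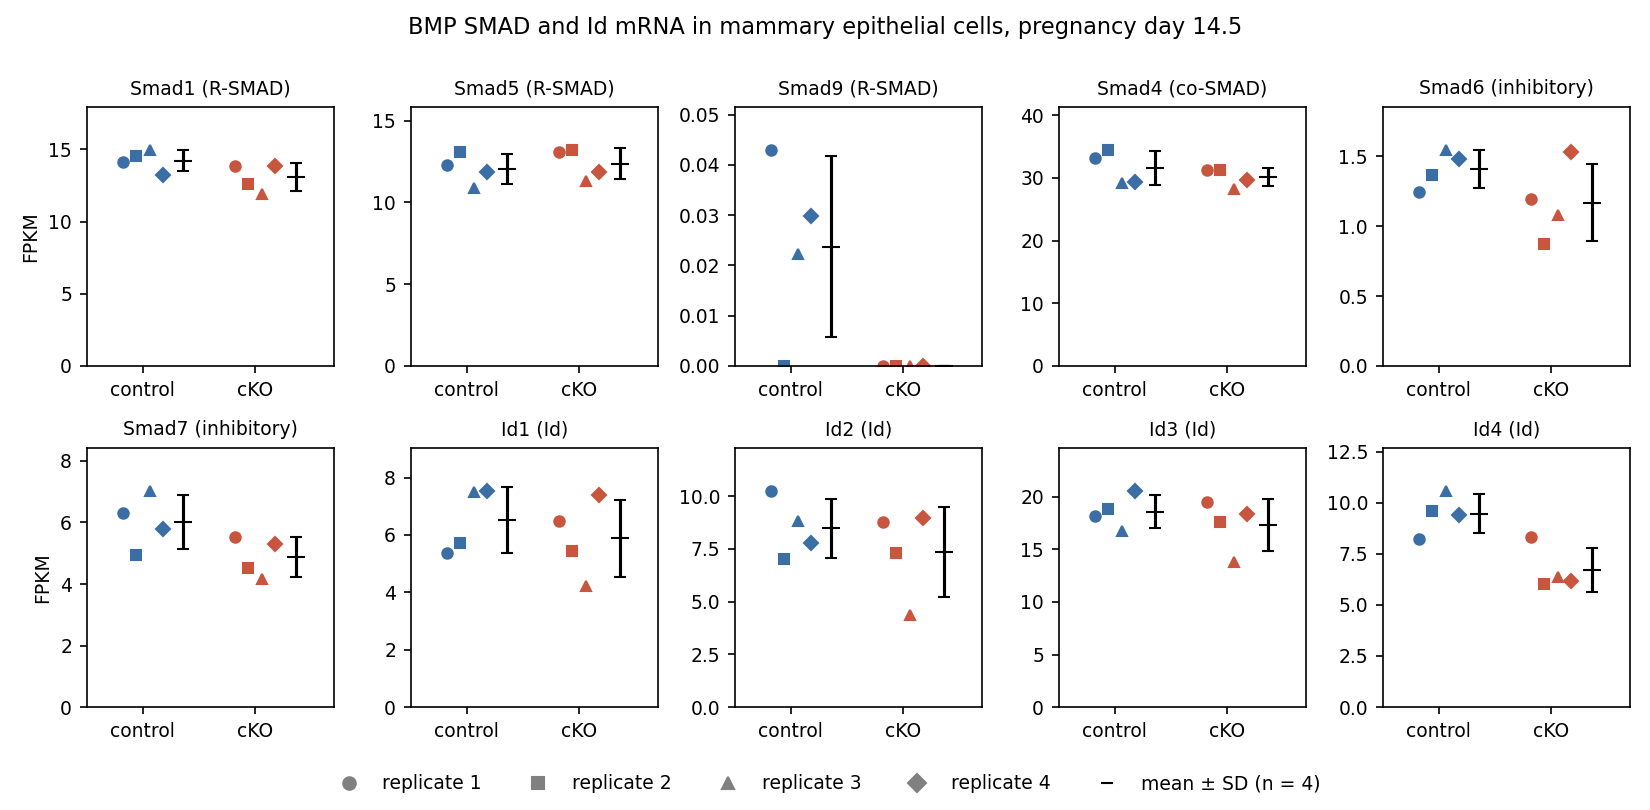
FPKM (vertical axes, each starting at 0) of the 10 members in 4 control (blue) and 4 cKO (red) libraries, with marker shape for the replicate number and mean ± SD in black. The 2 groups overlap for every member; for Id4, 3 cKO libraries at 6.00 to 6.38 FPKM sit below all controls and cKO replicate 1 at 8.30 sits just above the lowest control at 8.25.

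The question put to the comparison was whether the SMADs and Id genes differ in mRNA level between control and cKO epithelium. With limma on log2(FPKM + 1) fitted over all tested genes, 0 of the 9 tested members passed an adjusted p under 0.05, a threshold that 0.892% of all tested genes passed. At an unadjusted p under 0.05, 1 of 9 passed, which was Id4, beside 16.4% of all genes in either direction and 7.53% in the lower direction. limma-voom on the recovered reads also called 0 members at the adjusted threshold and 2, Id4 and Smad7, at the unadjusted one. The share of genes called lower depends on the scaling, and was 10.9% with TPM and 11.8% with library totals in place of the deposited values. The mean was lower in cKO for 8 of the 9 members, against 49.8% of all tested genes. Smad5, the exception, was lower too with TPM or library totals. Those scalings also moved the median log2 fold change of all tested genes, to -0.056 and -0.046. With the deposited scaling the median was -0.14 over the members and 0.00 over all tested genes. For 0 of the 10 members were the groups free of overlap, as they were for 10.7% of tested genes. In this fit no R-SMAD passed the test, nor did Smad4, and 1 call among 9 members lies near the background shares.

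**Figure D2:**
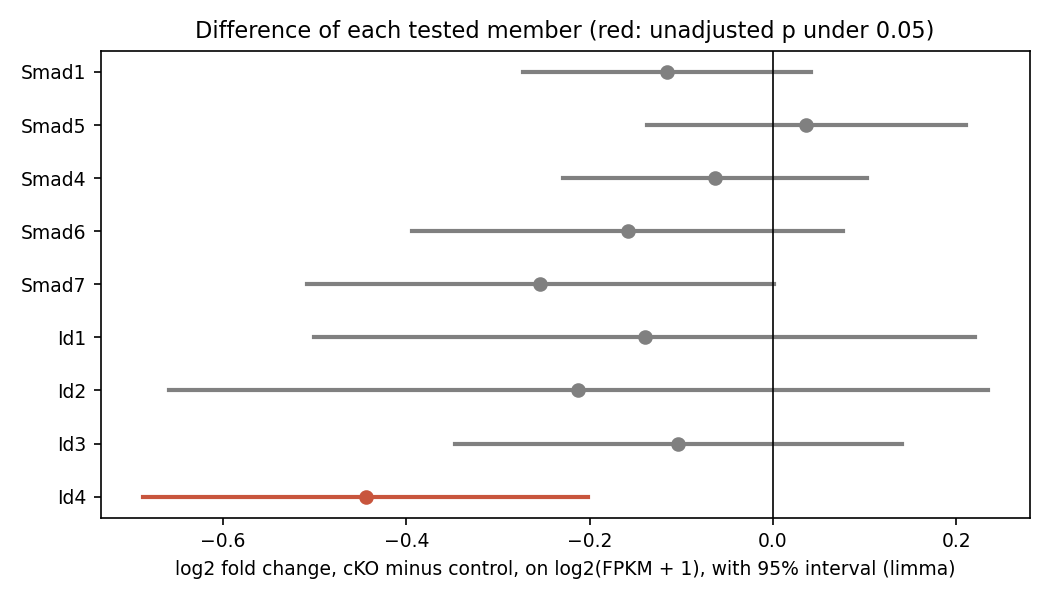
Log2 fold change (cKO minus control, horizontal axis, on log2(FPKM + 1)) of the 9 tested members with 95% intervals from limma. Only the interval of Id4 (red), from -0.69 to -0.20, leaves out 0. Smad5 is the only point to the right of 0. It moves to the left with TPM or library totals, which move the median of all tested genes to -0.056 and -0.046.

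Among the R-SMADs, Smad1 measured 14.1, 14.6, 15.0 and 13.2 FPKM in control libraries and 13.9, 12.6, 11.9 and 13.9 FPKM in cKO libraries. Controls 1, 2 and 3 were above all cKO libraries, and control 4 lay among them. The log2 fold change was -0.12 (SE 0.07, 95% interval -0.27 to 0.04, limma adjusted p = 0.455; exact two-sided permutation p = 0.114). With library totals in place of the deposited scaling, its log2 fold change was -0.17, past the unadjusted threshold, with a limma adjusted p of 0.275. That scaling moved the median of all tested genes to -0.046. The main interval leaves room for a fall of up to 17.2% and a rise of up to 2.91% on the FPKM + 1 scale.

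Smad5, a close relative of Smad1 with largely shared targets, measured 12.3, 13.1, 10.9 and 11.9 FPKM in control and 13.1, 13.2, 11.3 and 11.9 FPKM in cKO libraries. The cKO values ran over the control range (log2 fold change 0.04, SE 0.08, 95% interval -0.14 to 0.21, limma adjusted p = 0.853). Smad1 made up 54.1% ± 2.53 (SD, n = 4) of the summed R-SMAD level of controls and 51.4% ± 2.05 (SD, n = 4) of that of cKO libraries (exact two-sided permutation p = 0.143).

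Smad9, the third BMP R-SMAD, was close to absent. Its FPKM was 0.0430, 0, 0.0222 and 0.0298 in control libraries, which came from 4, 0, 2 and 3 reads, and it was listed at 0 in the 4 cKO libraries. After scaling for library size, the 9 control reads were 3.003-fold the floor of 3 reads set for the cKO group. This takes the 9 reads as exact, so it is not a lower bound on the ratio between groups. The exact permutation p was 0.143, where the smallest p that 4 against 4 libraries allow is 0.0286.

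Smad4, the shared partner of BMP and TGF-beta R-SMADs, measured 33.2, 34.5, 29.3 and 29.3 FPKM in control and 31.3, 31.3, 28.3 and 29.7 FPKM in cKO libraries. In both groups replicates 1 and 2 were higher than replicates 3 and 4. The difference between groups was smaller than this spread (log2 fold change -0.06, SE 0.07, 95% interval -0.23 to 0.10, limma adjusted p = 0.719). Over the 19 alternatives the log2 fold change of Smad4 ranged from -0.13 with TPM to -0.02 without control replicate 2.

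The inhibitory SMADs were lower on average in cKO libraries, without passing the test. Smad7 measured 6.31, 4.95, 7.02 and 5.77 FPKM in control and 5.53, 4.51, 4.15 and 5.31 FPKM in cKO libraries. Both cKO 2 and cKO 3 were below all controls, and cKO 1 and cKO 4 lay inside the control range. Its log2 fold change of -0.25 (SE 0.11, 95% interval -0.51 to 0.00) had a limma p of 0.051 before and 0.307 after adjustment. Its unadjusted p went under 0.05 in 10 of the 19 alternatives, and its adjusted p ranged from 0.192 to 0.498 over them. Smad6, which acts mainly on BMP receptors and R-SMADs, measured 1.24, 1.37, 1.55 and 1.48 FPKM in control and 1.196, 0.870, 1.08 and 1.53 FPKM in cKO libraries. Of these cKO values, 3 lay below all controls, and cKO 4 reached the upper end of the control range (log2 fold change -0.16, SE 0.10, limma adjusted p = 0.497). Without cKO 2 its log2 fold change was -0.09, and it was -0.28 with TPM and -0.27 with a pseudocount of 0.1. 

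Among the 9 tested members, Id4 had the greatest difference. It measured 8.25, 9.58, 10.6 and 9.41 FPKM in control libraries and 8.30, 6.00, 6.38 and 6.16 FPKM in cKO libraries, means of 9.45 ± 0.955 and 6.71 ± 1.07 (SD, n = 4 each). The cKO mean was 29.0% below the control mean, and 3 of 4 cKO libraries were below all controls, with cKO 1 at the level of control 1. The log2 fold change was -0.44 (SE 0.11, 95% interval -0.69 to -0.20), with a limma p of 0.003 before and 0.095 after adjustment; the exact two-sided permutation p was 0.0571. Without cKO 1 the log2 fold change was -0.54 and the adjusted p 0.048, and over all alternatives the adjusted p ranged from 0.048 to 0.211. Id4 rested on 381 to 682 reads a library. A pair of noncoding genes on the other strand share 82 and 171 exon bases with Id4 and held at most 2 reads in any library. ID4 is known in the mammary gland as a protein of basal and stem-like cells.

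The paper reports lower Id2 and Id3 by qRT-PCR in sorted myoepithelial cells of cKO mice at this stage. In the unsorted libraries here, Id1, Id2 and Id3 did not show the pattern of Id4. Id3, the most abundant Id mRNA, measured 18.2, 18.8, 16.8 and 20.6 FPKM in control and 19.5, 17.6, 13.8 and 18.4 FPKM in cKO libraries. All cKO values except that of cKO 3 fell inside the control range (log2 fold change -0.10, SE 0.11, limma adjusted p = 0.685). Id1 measured 5.37, 5.72, 7.51 and 7.53 FPKM in control and 6.48, 5.44, 4.23 and 7.38 FPKM in cKO libraries. Again cKO 3 alone was below the controls (log2 fold change -0.14, SE 0.16, 95% interval -0.50 to 0.22). Id2, which has a known part in alveolar development in pregnancy, measured 10.2, 7.03, 8.84 and 7.78 FPKM in control and 8.80, 7.29, 4.37 and 8.94 FPKM in cKO libraries. Its interval was the widest of the members (log2 fold change -0.21, SE 0.20, 95% interval -0.66 to 0.23). Without cKO 3 the log2 fold changes of Id1, Id2 and Id3 were -0.02, -0.01 and 0.00, and that of Id4 was -0.43 with an unadjusted limma p of 0.008.

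The summed Id level averaged 43.1 ± 1.83 FPKM (SD, n = 4) in controls, while cKO libraries averaged 37.3 ± 6.32 FPKM (SD, n = 4). Id3 made up 43.2% ± 3.37 of it in control and 46.7% ± 1.77 in cKO libraries, and Id4 22.0% ± 2.13 and 18.3% ± 3.13. The difference in the share of Id4 did not pass the exact two-sided permutation test (p = 0.114).

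cKO 3 was the lowest of the 8 libraries for 6 of the 9 tested members, namely Smad1, Smad4, Smad7, Id1, Id2 and Id3. The log2 differences were also taken within replicates 1 and 2 and within replicates 3 and 4, a division that no label names as a batch; the difference between the 2 sets was not tested. Within replicates 1 and 2 the log2 difference of Id4 was -0.29 and within replicates 3 and 4 it was -0.60. For Id1 these were 0.08 and -0.36, for Id2 -0.08 and -0.35, for Id3 0.00 and -0.21, and for Smad7 -0.14 and -0.37. For Smad6 they were -0.19 and -0.13, for Smad1 -0.11 and -0.12, and for Smad5 0.05 and 0.02, while Smad4 had the greater difference in replicates 1 and 2 (-0.11 and -0.02). With the 2 sets as a block, the adjusted p of Id4 in limma was 0.079.

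**Figure D3:**
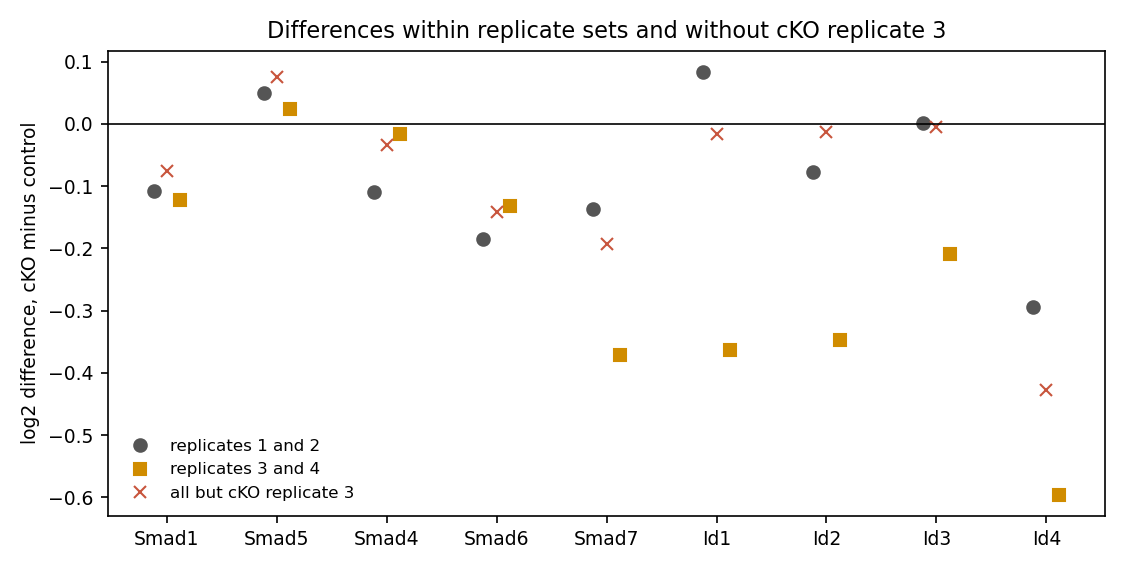
Log2 difference (cKO minus control, vertical axis, on log2(FPKM + 1)) of the 9 tested members within replicates 1 and 2 (circles), within replicates 3 and 4 (squares) and without cKO replicate 3 (crosses). Id1, Id2 and Id3 come to between -0.02 and 0.00 without cKO 3, and Id4 stays at -0.43. Smad5, above 0 in all 3, lies below 0 with TPM or library totals. These scalings move the median of all tested genes to -0.056 and -0.046.

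The spread between libraries of a group, which holds counting error, preparation and mice together, was set beside the spread that counting alone would give. The pooled SD between libraries was 0.329 for Id2 on the log2 scale and the counting SD 0.069. For Id4 they were 0.164 and 0.055, and for Smad1 0.087 and 0.035. For Smad6, which had fewer reads, they were 0.140 and 0.095.

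Genes of the same pathway were then read by role. Of 10 receptors and co-receptors tested, 0 passed the adjusted threshold and 2 the unadjusted one, beside 0.892% and 16.4% of all tested genes. Eng, the endothelial co-receptor endoglin, was lower in cKO (19.8 ± 2.06 against 15.9 ± 2.05 FPKM, log2 fold change -0.31, limma adjusted p = 0.207), and Rgma, a BMP co-receptor, was higher (2.81 ± 0.271 against 3.42 ± 0.390 FPKM, log2 fold change 0.21, adjusted p = 0.272), both past the unadjusted threshold alone. Of the 4 BMP ligands tested all had lower means in cKO, beside 49.8% of all tested genes. Bmp7 measured 4.78, 5.39, 6.01 and 5.85 FPKM in control and 4.72, 3.97, 4.23 and 4.23 FPKM in cKO libraries, with no overlap (log2 fold change -0.30, SE 0.08, limma adjusted p = 0.128). Bmp2 differed by -0.15 on the log2 scale (adjusted p = 0.685). Of 9 tested antagonists, 7 had lower means, beside 49.8% of all tested genes. Of the 9, 2 passed the unadjusted threshold, both lower, beside 7.53% of all tested genes. These were Fst and Nbl1 (log2 fold change -0.34, named after its value was seen). Follistatin (Fst), which binds activins and some BMPs, measured 55.3, 47.8, 61.3 and 56.3 FPKM in control and 38.5, 34.005, 42.1 and 30.8 FPKM in cKO libraries. Its groups did not overlap, and its adjusted p of 0.0502 (log2 fold change -0.59, SE 0.11, limma) missed the threshold narrowly. Fstl1, a follistatin-like secreted protein, differed by -0.43 with overlapping groups (adjusted p = 0.376).

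Inside the cell, Smad2 and Smad3 differed by 0.02 and 0.05 on the log2 scale (limma adjusted p = 0.895 and 0.821). Of 19 SMAD cofactors and regulators, 7 had higher and 12 lower means, where 49.8% of all tested genes were lower. Of the 19, 1 passed the unadjusted threshold, beside 16.4% of all tested genes. This was Ski, a repressor that binds SMADs (22.5 ± 1.59 against 19.3 ± 1.17 FPKM, -0.21, limma adjusted p = 0.189). Tob2, an antiproliferative protein, differed by -0.21 (limma adjusted p = 0.319). Of 12 other BMP target genes tested, 0 passed the unadjusted threshold in limma, which 16.4% of all tested genes passed, and a count of 0 in a list of this size says little about the list. The 2 with the greatest differences were Hes1, a repressor better known as a Notch target, at 0.37 (limma adjusted p = 0.366), and Bambi, a decoy receptor, at -0.22 (adjusted p = 0.497). Among the E proteins that Id proteins capture, Tcf3 measured 19.1, 18.7, 22.2 and 19.7 FPKM in control and 14.5, 15.4, 16.8 and 16.1 FPKM in cKO libraries. All 4 cKO values were below all controls (log2 fold change -0.33, SE 0.07, limma adjusted p = 0.079). Tcf4 and Tcf12 differed by -0.10 and 0.02. Id4 and Tcf3, an Id gene and an E protein gene, were thus both lower in mean in cKO, each short of the adjusted threshold.

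**Figure D4:**
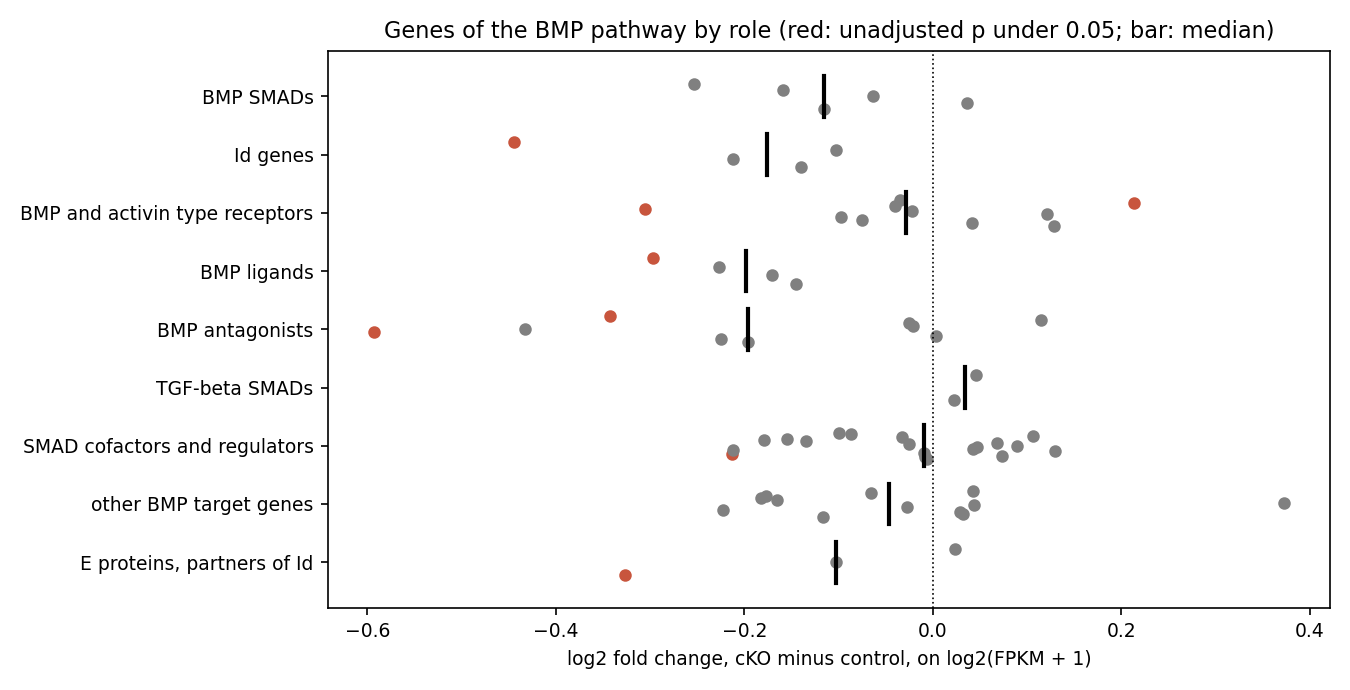
Log2 fold change (cKO minus control, horizontal axis, on log2(FPKM + 1)) of each tested gene by role in the pathway, with the median as a bar and genes with an unadjusted limma p under 0.05 in red. The medians of the Id genes (-0.18), ligands (-0.20) and antagonists (-0.20) lie below 0, and those of the SMAD cofactors and TGF-beta SMADs (-0.01 and 0.03) lie near 0.

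In bulk RNA, fewer cells of a type and less RNA per cell cannot be told apart, and several members are also expressed by endothelial and stromal cells. All 10 endothelial markers had lower mean log2 levels in cKO, as did 49.8% of all tested genes, with Vwf passing the adjusted threshold (log2 fold change -0.46, limma adjusted p = 0.027), and their summed level was 133 to 154 FPKM in control and 105 to 141 FPKM in cKO libraries. The Vwf call was lost in 7 of the 8 fits that left out 1 library, all but that without cKO 1 (adjusted p up to 0.088). Against the control mean, the endothelial log2 mean differed by -0.06 to 0.08 in control libraries, by 0.03 in cKO 1 and by -0.41 to -0.18 in the other 3 cKO libraries, so that cKO 1 was inside the control range for these markers as it was for Id4. The means of cKO 1 were inside the control range for the fibroblast (0.29), pericyte (0.11) and macrophage (-0.11) lists too. In these lists cKO 1 was not alone. Both cKO 2 and cKO 4 were inside for the fibroblast (-0.42 and -0.22) and macrophage (-0.14 and -0.15) lists. For the pericyte list cKO 4 (-0.12) was inside and cKO 2 (-0.20) was below. Of the 8 fibroblast markers all had lower mean log2 levels and 0 passed a test (summed level 478 to 1007 against 323 to 779 FPKM). All 4 pericyte markers tested (45.9 to 63.0 against 35.8 to 56.0 FPKM) and 5 of 6 macrophage markers (168 to 246 against 104 to 180 FPKM) were lower in mean log2 level too, and cKO 3 had the lowest endothelial, fibroblast, pericyte and macrophage means of the 8 libraries. At the unadjusted threshold, 3 endothelial markers (Vwf, Pecam1 and Emcn) and 2 macrophage markers (Lyz2 and Adgre1) passed in the lower direction, beside 7.53% of all tested genes, and 0 fibroblast and 0 pericyte markers did; Pecam1 and Emcn were named after their values were seen. No marker of these lists was at 0 in all libraries. The part of these cells in the values of Id4, Smad7 or the other members was not tested.

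Myoepithelial markers were split, with 6 of 10 higher and 4 lower in mean log2 level (summed level 1628 to 2209 against 1527 to 2098 FPKM). At the unadjusted threshold, which 16.4% of all tested genes passed in either direction and 7.53% in the lower one, 4 of the 10 passed. The 1 that passed higher was Oxtr, the oxytocin receptor, at 0.85 (limma adjusted p = 0.064). The 3 that passed lower were Trp63, a basal transcription factor, at -0.42 (adjusted p = 0.181), and also Krt14 and Cdh3, named after their values were seen, at -0.39 and -0.23. Luminal markers were split 5 to 5 (4500 to 5699 against 4395 to 5694 FPKM), and Cited1, a gene of hormone-sensing luminal cells, was called lower at -1.01 (adjusted p = 0.027), with Elf5 higher at the unadjusted threshold alone (0.82, named after its value was seen). Adipocyte Cidec, a lipid droplet protein, was called higher at 0.86 (adjusted p = 0.038), with 3 of the 4 tested adipocyte markers higher. Both of these calls were also lost in 7 of the 8 fits that left out 1 library, all but that without cKO 1 (adjusted p up to 0.088 for Cited1 and 0.116 for Cidec). Of 10 immediate early genes, which respond to tissue digestion, 0 passed a test (996 to 1264 against 847 to 1504 FPKM).

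**Figure D5:**
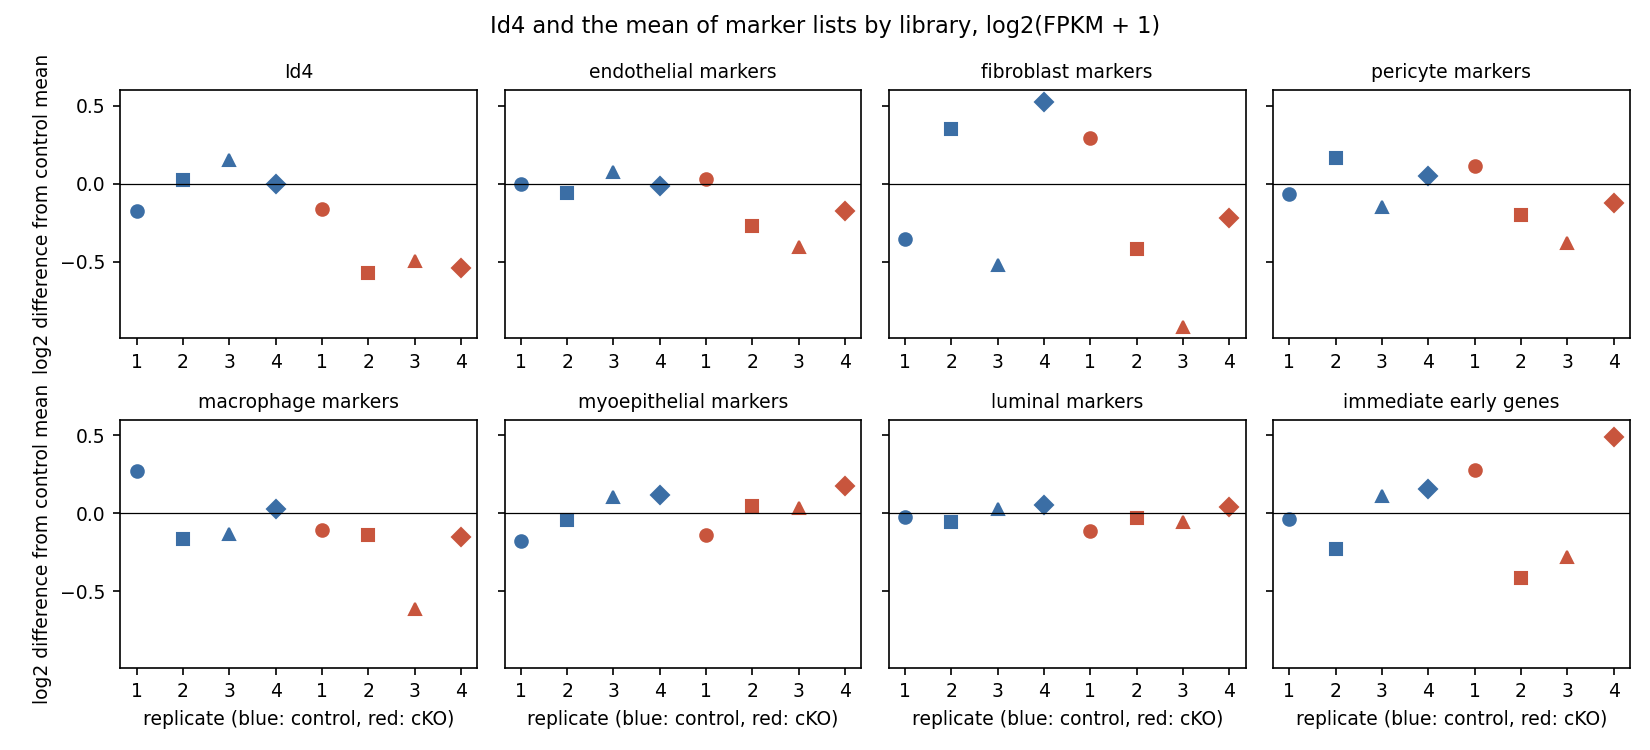
Log2 difference from the control mean (vertical axis) of Id4 and of the mean of 6 marker lists and the immediate early genes in each library (horizontal axis, replicate number; blue control, red cKO). Id4 and the endothelial mean are both lower in cKO 2, 3 and 4 (Id4 at -0.57, -0.50 and -0.54; endothelial at -0.27, -0.41 and -0.18) and both within the control range in cKO 1.

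The genes most like Id3 and Smad4 over the 8 libraries were sought among 7337 genes with a mean of at least 5 FPKM. For Id3, the closest were Nmi (Pearson r = 0.973, Spearman rho = 0.929), Serping1 (r = 0.962, rho = 0.952) and Fam53c (r = 0.948, rho = 0.857). Without the 2 libraries farthest from the Id3 median these r were 0.820, 0.927 and 0.722. For Smad4 they were Ubr7 (r = 0.986, rho = 0.929), Dcaf1 (r = 0.961, rho = 0.976) and Sdad1 (r = 0.961, rho = 0.929), and r was 0.967, 0.833 and 0.869 without the 2 farthest libraries. The genes were chosen by r, so no p is given, and the 8 points share scaling and the 2 groups.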

How the data were processed

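Total RNA of mammary epithelium from 8 mice was made into NEBNext Ultra libraries, and per the study's methods the authors checked reads with FastQC, aligned them with Hisat2 to GRCm38 and computed FPKM; the deposited FPKM values carry the authors' own scaling between libraries. GEO's processing notes also list StringTie 1.3.3b, featureCounts 1.5.0-p3 and mm9. Of the 55933 genes, 55394 were in GENCODE vM21 (GRCm38), 99.6% of them with the same coordinates, so GRCm38 is used here. Strandedness and which mice shared a litter are not given in the sources used here, so p-values measure the spread between these libraries.

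Reads were recovered as FPKM times gene length over the value of 1 read (100% of values whole within 0.01). log2(FPKM + 1) was fitted with limma 3.58.1 (R 4.3.3) with a trended prior over the 15143 genes with a mean of at least 0.5 FPKM, with Benjamini-Hochberg adjustment over all of them. Fold changes are on the log2(FPKM + 1) scale, which understates changes of low genes. Single values were compared by the exact two-sided permutation test. Counting intervals and floors cover counting error only. The members, the gene lists and the tests were chosen with earlier results of these data known. Named genes are the 10 members, Bmpr1a and, from each list, genes with an adjusted p under 0.05 or else the 2 with the largest absolute log2 fold change at a mean of at least 1 FPKM; for likeness, the 3 genes with the highest r. The 19 alternatives are another pseudocount, other filters, other scalings, no trend, limma-voom, blocks and each library left out. The result of 1 marker list is not reported here.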

Additional observations from a re-analysis of the deposited data

Results flagged for a closer look

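Of 19 groups of 4 values examined for a library far from the other 3, 1 was marked, where chance marks about 1 in 20. This was Id4 in the cKO libraries: cKO 1 measured 8.30 FPKM and the other 3 measured 6.00, 6.38 and 6.16 FPKM. In the same library the mean endothelial, fibroblast, pericyte and macrophage levels were all inside their control ranges. Of these lists, only the endothelial list had all other cKO libraries outside its control range. The part of these cells in the Id4 value was not tested.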

How the results depend on the processing

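Of 171 recomputed log2 fold changes (9 members, 19 alternatives), 156 kept their direction and their side of the unadjusted threshold, 12 kept the direction and went under 0.05 and 3 changed direction. The last were all of Smad5: -0.022 with TPM, -0.019 with library totals and -0.0077 without control replicate 3 (-0.0077 to 0.076 over all libraries left out in turn). With TPM and library totals the median over all tested genes was -0.056 and -0.046, against 0.0007 in the main fit. The number of members at an unadjusted p under 0.05 was 2 with a pseudocount of 0.1, with a filter of 1 FPKM, with TPM, with a second scaling by median ratios and with limma-voom with and without the replicate block, and 3 with library totals (Id4, Smad7 and Smad1); Id4 was among them each time. Leaving out 1 library gave 1 to 3 members, 3 without cKO 4 (Id4, Smad6 and Smad7), and 0 to 1 at the adjusted threshold, the 1 being Id4 without cKO 1. Same-numbered libraries correlated at 0.0797 to 0.137, and 3 of 8 correlated best with their own number. The numbers were therefore not taken as pairs. Over all pairs of a control and a cKO library the correlations ran from -0.21 to 0.178. They were positive for pairs within replicates 1 and 2 or within 3 and 4, and negative for all pairs across these sets. With the replicate block in limma, 1 member passed the unadjusted and 0 the adjusted threshold (Id4 adjusted p = 0.140).

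Over all tested genes, adjusted calls numbered 135, and 10 with no filter, 50 with the replicate block, 252 with limma-voom (680 with the block), 442 with replicates 1 and 2 against 3 and 4 as a block and 0 to 78 with a library left out; the cause was not tested. Unadjusted calls were 1340 higher and 1140 lower, and 784 higher and 1657 lower with TPM. Smad6 rests on 46 to 91 and Id1 on 78 to 164 reads a library, and Smad9 on at most 4, which limits what these libraries can show for them.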
